A study of Mus musculus with 2 samples.

Results

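Amacrine cells were examined in dissociated mouse retinas at postnatal day 7, from a control library and a Mettl3-CKO library. They were chosen by transcripts: a cell needed at least 1000 UMIs (unique molecular identifiers, 1 per captured transcript) outside mitochondrial genes, a UMI of at least 3 of 7 marker genes (Tfap2a, Tfap2b, Gad1, Gad2, Slc32a1, Slc6a9 and C1ql2), and a UMI of fewer than 3 of 6 cone genes. This rule took 43 of 3541 control cells and 40 of 2789 Mettl3-CKO cells of that depth, 83 cells of 6330 in all, among 7103 complete cells. The levels of the 7 markers are therefore given as a description.

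Mettl3-CKO retinas came from Six3-Cre+; Mettl3 floxed/floxed mice, which lose Mettl3, the catalytic subunit of the m6A methyltransferase, in the retinal progenitors and neurons descended from them. Controls were littermates whose full genotype was not given in the sources used here, and deletion was described as efficient in the central retina. Each library pooled 2 retinas from 1 litter, so each group held 1 library, no comparison of the genotypes has a replicate check, and cells are not replicates. Values are therefore given as CPM (UMIs of a gene per 1000000 UMIs, pooled over the cells of a library) with exact 95% intervals, which cover counting error only. A gene is called higher or lower where its pooled CPM differed at least 2-fold and it held at least 100 UMIs in the cells compared.

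Amacrine cells are the inhibitory interneurons of the inner retina. They take input from bipolar cells and other amacrine cells in the inner plexiform layer and release mostly GABA or glycine onto bipolar, amacrine and ganglion cells. Their fate is set by Foxn4 and Ptf1a in progenitors and newborn cells, with Prdm13, Tfap2a, Tfap2b and Barhl2 acting later. GABA is made by the glutamate decarboxylases Gad1 and Gad2, Slc6a9 and Slc6a5 are glycine transporters, and Slc32a1 loads both transmitters into vesicles.

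Members were deep, with medians of 10821 UMIs in control and 10426 in Mettl3-CKO against library medians of 4521 and 5207 over complete cells. Only part of each matrix was held, 3994 of 5995 control and 3109 of 6992 Mettl3-CKO barcodes, and other barcodes were not analysed here. Xist, the RNA of the inactive X chromosome, had 0 UMIs in the control members and was found in 31 of 40 Mettl3-CKO members, so the pooled retinas of the libraries differed in sex as well as in genotype, and these cannot be told apart. Of the barcodes, 5 were shared by the libraries and 0 of them were members.

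Most members also held some of the amacrine cell genes that the rule did not use. Pax6, a transcription factor that amacrine cells keep after leaving the cell cycle, was found in 97.7% of control members (95% interval 87.7 to 99.9) and 95% of Mettl3-CKO members (83.1 to 99.4), against 4.07% and 9.77% of rods. Rods here were cells with at least 5 of 6 rod transcripts and few amacrine, cone and bipolar markers (762 control and 481 Mettl3-CKO cells), with median depths of 4239 and 4700 UMIs. Elavl3, an RNA-binding protein of postmitotic neurons, was found in 95.3% and 92.5% of members and in 1.05% and 1.87% of rods. Members with both Pax6 and Elavl3 numbered 41 of 43 and 36 of 40. Prdm13 was found in 90.7% of control and 85.0% of Mettl3-CKO members, and in 0.656% and 1.04% of rods. Pax6 and Elavl3 come from a list of 10 amacrine markers outside the rule, and not all of it was raised in the members. Of its genes, 6 held at least 100 UMIs there. At least 2-fold over the other cells in both libraries were 3 of these 6, against 8.1% of all 1951 such genes. Snap25 was higher in control rods than in control members (log2 2.53). Stx1a had 1 and 2 UMIs and Snhg11 2 and 4 UMIs in the members.

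At the limit of the rule, Elavl3 was detected in 20 of 22 control and 16 of 18 Mettl3-CKO cells with exactly 3 markers. Just outside it, among cells with exactly 2 markers, Elavl3 was detected in 12 of 75 and 18 of 72. The cells just outside were shallower, with medians of 6251 and 8373 UMIs against 10751 and 9541 just inside.

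**Figure D1:**
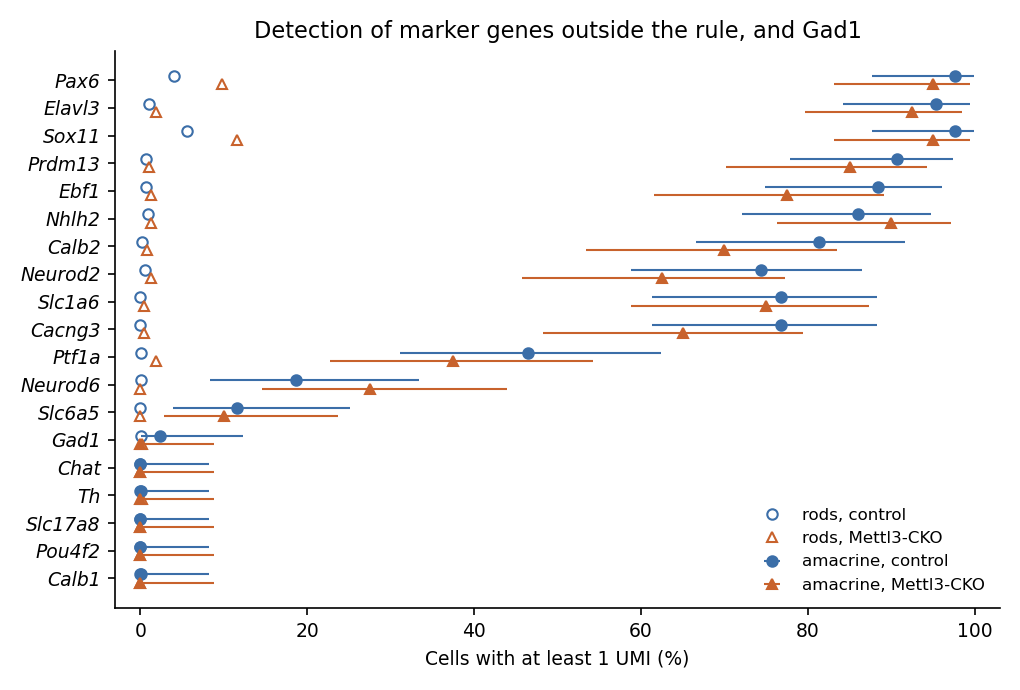
Share of cells with at least 1 UMI of genes outside the rule, and of Gad1, in amacrine cells (filled symbols with exact 95% binomial intervals) and rods (open symbols) of the control (circles) and Mettl3-CKO (triangles) libraries; the horizontal axis is in percent. Pax6, Elavl3 and Sox11 were found in over 90% of the amacrine cells and at most 11.6% of rods, Ptf1a in 46.5% and 37.5% of amacrine cells, and Chat, Th, Slc17a8, Pou4f2 and Calb1 in 0 of 43 and 0 of 40.

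Ganglion cell markers were at low levels in the members and horizontal cell markers at higher ones, and both lists summed higher there than in the other cells. The retinal ganglion cell markers Pou4f2, Pou4f3, Slc17a6 and Sncg had 0 UMIs in the members of both libraries. The list of 8 genes summed to 26.1 CPM in control and 35.1 CPM in Mettl3-CKO, from 12 and 20 UMIs, against 12.2 and 11.4 CPM in the other cells. The 6 horizontal cell markers summed to 635 and 570 CPM, against 301 and 304 CPM in the other cells, and at least 2 of them were found in 33 of 43 and 34 of 40 members, against 6.96% and 12.5% of rods. Calb1, a calcium-binding protein of horizontal cells and some amacrine cells, had 0 UMIs in the members, and Lhx1, the factor that defines those cells, had 0 UMIs in control and 4 UMIs in 3 Mettl3-CKO members. Pou4f2 had 0 UMIs in the other cells too, and Calb1 had 4 and 1, Slc17a6 14 and 10 and Sncg 6 and 4 UMIs there. The absence of these 4 genes therefore says nothing particular of the members. Of the other horizontal cell genes, Prox1 (396 and 309 CPM) and Onecut2 (202 and 216 CPM) were present, and Prox1 is also a gene of amacrine cells. Microglia markers held 1 and 5 UMIs.

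Rod transcripts were spread unevenly over the members. Over 8 rod markers the median member held 2.58 rod UMIs per 10000 UMIs in control and 2.26 in Mettl3-CKO, against 260.4 and 231.2 in rods. A minority lay far above: 10 control members and 12 Mettl3-CKO members held at least 20 per 10000, up to 134 and 248, while 33 and 28 members lay below, and 3 and 1 members lay within 5 of this limit. The limit was set after these values were seen. Rod-rich members carried 27.7% of the control members' UMIs but 48.1% of those of Mettl3-CKO. Of the Mettl3-CKO members, 2 barcodes held 71838 and 77813 UMIs, the deepest members of either library, and together 26.3% of the UMIs. They carried 173 and 253 UMIs of the rod gene Nr2e3 beside 23 and 9 UMIs of Tfap2b. Scrublet, a program that marks barcodes with 2 cells, marked 0.0751% and 0.225% of barcodes and no member, which is too few to have worked, so doublets were in effect not removed. The 6% of cells with the highest Scrublet scores in each library held 7 of 43 control and 12 of 40 Mettl3-CKO members. Results are given below for all members and for the members under 20 rod UMIs per 10000, called the rod-poor members. Rod genes are low in these by the choice, and the choice also removes both barcodes above 50000 UMIs.

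**Figure D2:**
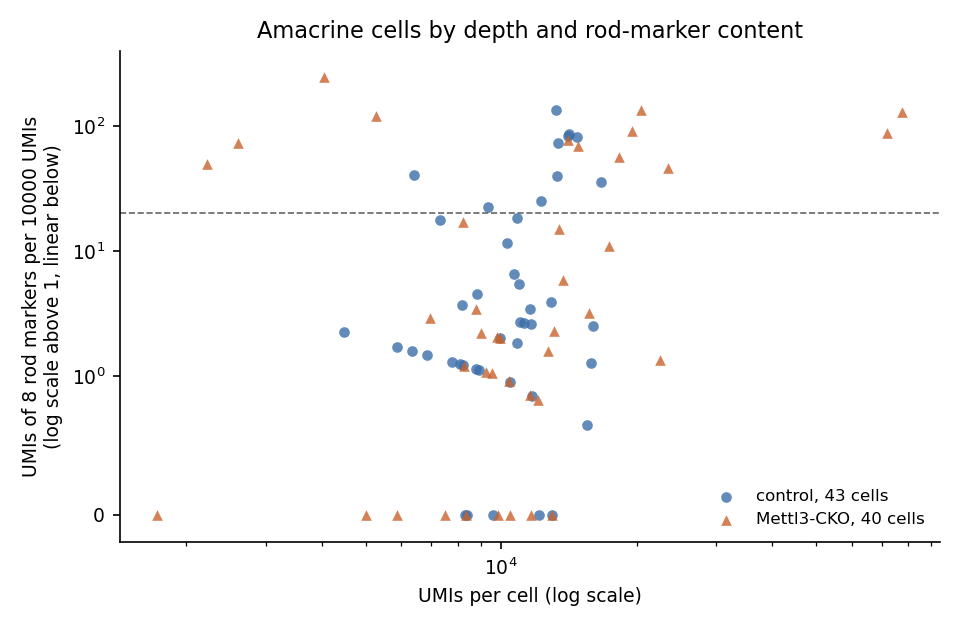
Each point is 1 amacrine cell of the control (circles, 43 cells) or Mettl3-CKO (triangles, 40 cells) library; the horizontal axis gives its UMIs on a log scale and the vertical axis the UMIs of 8 rod markers per 10000 UMIs. The dashed line at 20 separates 10 control and 12 Mettl3-CKO rod-rich members, among them the 2 Mettl3-CKO barcodes above 50000 UMIs, from the rod-poor members.

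The members were also compared with the other cells of the same library. Among 1951 genes with at least 100 UMIs in the members, 158 (8.1%) were at least 2-fold higher than in the other cells in both libraries and 14 (0.718%) at least 2-fold lower in both. Genes with few UMIs in the members did not enter, so the 158 and the 14 do not show which direction was more common. Ranked by the smaller ratio of the 2 libraries, the first 12 genes included Cacng3, an auxiliary subunit of AMPA receptors (187 CPM, 314-fold over other cells in control, and 135 CPM, 173-fold in Mettl3-CKO). Slc1a6, a glutamate transporter, was at 352 and 246 CPM (309-fold and 112-fold). The 12 also held Calb2, Igfbpl1, Klhl35, Lhfp, Lix1, Myt1l, Nhlh2 and Zfp804a, beside Tfap2b of the rule. Calb2, the calcium-binding protein calretinin, was found in 81.4% of control and 70.0% of Mettl3-CKO members, and Nhlh2, a basic helix-loop-helix factor of newborn neurons, in 86.0% and 90%.

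Of the 22 fate and identity factors, 15 held at least 100 UMIs in the members. Of these 15, 8 were at least 2-fold over the other cells in both libraries, against 8.1% of all 1951 such genes. Not all of the list was raised, and Neurod1 was higher in control rods than in control members (log2 2.35). The values that follow are of raised factors. Prdm13 was 186-fold and 41.4-fold over other cells, Ptf1a 97.7-fold and 25.2-fold, Ebf1 37.2-fold and 34.4-fold, Sox11 27.9-fold and 10.8-fold, and Pax6 6.38-fold and 4.29-fold. Foxn4, which acts before Ptf1a in progenitors, had 0 UMIs in the members of both libraries and 132 and 162 UMIs in the other cells. Neurod2, a neuronal basic helix-loop-helix factor, was found in 74.4% and 62.5% of members. Neurod6, known from amacrine cells that release neither GABA nor glycine, was found in 18.6% (8.39 to 33.4) and 27.5% (14.6 to 43.9), against 0.131% and 0% of rods.

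Several genes of mature amacrine subtypes had no UMIs. Gad2 and Slc6a9 were detected, but both are markers of the rule, so their detection is not a finding. Chat and Fezf1 of starburst cells, Th, Slc6a3 and Gch1 of dopaminergic cells, Slc17a8 of glutamate-releasing amacrine cells, and Vip, Tac1, Penk, Cck, Crh, Gal and Nos1 each had 0 UMIs in the members of both libraries. In all other cells together each of these genes had at most 28 UMIs in a library, so their absence does not set the members apart. With 3 cells as the limit that a count of 0 allows, 0 of 43 and 0 of 40 cells allow a share of up to 6.98% and 7.5% of cells with a UMI, and the exact intervals reach 8.22% and 8.81%. Gad1 had 2 and 0 UMIs in the members and 8 UMIs in the other cells of each library, so it was close to 0 throughout, and Gad2 alone gave the GABA readout. Cells with at least 2 of 8 starburst genes were 5 of 43 and 6 of 40, against 0.787% and 0.624% of rods, and rested on Slit2, Sox2 and at most 1 UMI of any other listed gene in a library. Cells with at least 2 of 6 AII genes were 41 of 43 and 33 of 40 (6.69% and 12.1% of rods), and cells with at least 2 of 5 genes of the cells that release neither transmitter were 31 of 43 and 24 of 40 (0.131% and 0.832% of rods). Prox1, Calb2 and Nfia carried the first of these lists and Neurod2 and Ebf3 the second, each found in 60.0% to 90.7% of members, so neither list marked out a small subset.

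Receptor subunits were sparse and release genes more abundant. Among GABA-A and glycine receptor subunits, Gabra2 was at 100 and 63.2 CPM and Glra2, the glycine receptor subunit that comes first in development, at 52.2 and 38.6 CPM, and none of the 17 genes reached 100 UMIs. Among 14 ionotropic glutamate receptor subunits Gria2 led with 176 and 82.5 CPM, followed by Grik2 (54.4 and 47.4 CPM) and Gria4 (47.8 and 42.1 CPM). Of the synaptic vesicle and release genes, Cplx3, a complexin of ribbon synapses and of some amacrine cells, was at 2009 and 1516 CPM (6.60-fold and 5.79-fold over other cells). Syn2 had 0 UMIs and Stx1a, a common amacrine antigen, 1 and 2 UMIs.

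Members differed among themselves along Ptf1a, the factor that commits progenitors to inhibitory fates. The gene (chromosome 2, 19445663 to 19447501, plus strand of GRCm38) was found in 20 of 43 control members, 46.5% (31.2 to 62.3), and 15 of 40 Mettl3-CKO members, 37.5% (22.7 to 54.2), against 0.131% and 1.87% of rods. Members with and without it had similar depths, with medians of 10751 and 10821 UMIs in control and 10411 and 10440 in Mettl3-CKO. This division was made after values were seen. Genes were ranked by the smaller of the 2 libraries' ratios, so that the leading genes share a direction between libraries by the choice, and the values are a description.

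Among the genes higher with Ptf1a, Rgs16, a regulator of G protein signalling, was at 362 CPM in control members with Ptf1a and 4.05 CPM in those without, and at 244 and 9.02 CPM in Mettl3-CKO. Chodl, a membrane lectin, was at 1108 against 130 CPM in control, a log2 ratio of 3.096 (2.56 to 3.68), and at 560 against 51.1 CPM in Mettl3-CKO, a log2 ratio of 3.45 (2.72 to 4.28). The transcription factors Pou3f1 (log2 ratios of 1.93 and 2.90) and Tfap2c (2.56 and 1.91) were also higher with Ptf1a, as was Id1 (1.99 and 2.29). Tubb3, the neuronal tubulin, had log2 ratios of 1.51 and 1.48, Prdm13 of 1.05 and 0.98, and Sox11 of 0.65 and 1.02.

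Among the genes higher without Ptf1a, Robo3, a receptor of axon guidance, was at 190 CPM in control members without Ptf1a and 9.39 CPM in those with it, and at 307 against 21.1 CPM in Mettl3-CKO. The intermediate filament gene Ina had log2 ratios (with over without Ptf1a) of -1.42 and -1.32, the AMPA receptor subunit Gria2 of -1.59 and -1.80, and Ank3, the ankyrin of the axon initial segment, of -1.35 and -1.28. Ebf3 (-1.65 and -1.34), Apc (-2.14 and -1.90), Crabp1 (-2.86 and -1.21) and Dbi (-2.16 and -1.12) lay on the same side, as did Prox1os, Crtac1, Mdk and Rasgef1b. Over all members Gad2 and Slc6a9 had intervals that held 0, with Gad2 at log2 ratios of 0.10 (-0.37 to 0.57) and -0.41 (-0.89 to 0.06), and Slc6a9 of 0.06 (-0.51 to 0.62) and -0.49 (-1.11 to 0.09). Among rod-poor members alone, the ratios for Chodl were 3.06 and 3.07, for Pou3f1 1.89 and 2.55, for Robo3 -3.89 and -4.60 and for Gria2 -1.94 and -2.35. Slc6a9 was there at -0.11 (-0.76 to 0.53) in control and at -0.92 (-1.76 to -0.12) in Mettl3-CKO, an interval below 0.

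**Figure D3:**
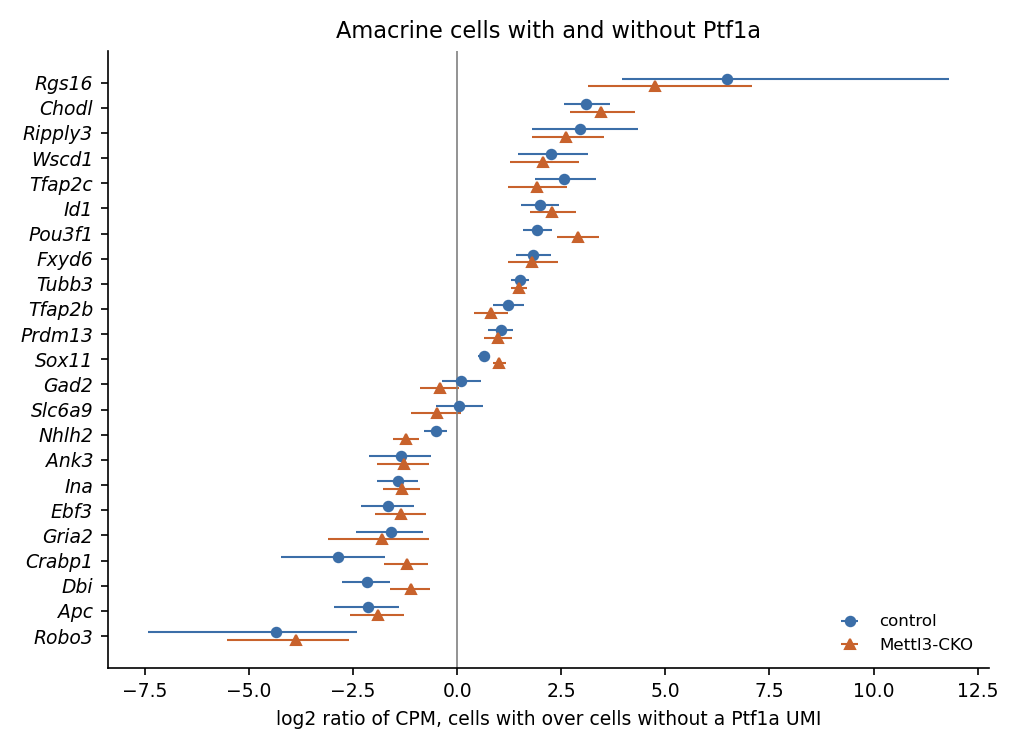
Log2 ratio of pooled CPM between amacrine cells with and without a Ptf1a UMI, within the control library (circles, 20 and 23 cells) and within the Mettl3-CKO library (triangles, 15 and 25 cells); bars are exact 95% intervals for counting error. Chodl, Pou3f1 and Tubb3 lay above 0 and Robo3, Apc and Gria2 below 0 in both libraries, with Gad2 and Slc6a9 near 0.

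Transmitter genes divided the members less cleanly. A member was placed on the GABA side where it held at least 2 UMIs of Gad1 and Gad2 and more of these than of Slc6a9 and Slc6a5, and on the glycine side in the reverse case. In control, 20 of 43 members lay on the GABA side, 46.5% (31.2 to 62.3), 14 on the glycine side, 32.6% (19.1 to 48.5), and 9 were unassigned. In Mettl3-CKO these were 18 of 40, 45.0% (29.3 to 61.5), 12, 30% (16.6 to 46.5), and 10. The Mettl3-CKO over control ratio of the GABA share was 0.968 (0.605 to 1.55) and of the glycine share 0.921 (0.486 to 1.75), so a change of either share by a factor of 1.5 lies within counting error. UMIs of Gad2 and Slc6a9 were found together in 36 of 43 and 31 of 40 members, and Slc6a9 was also found in 26.2% and 36.0% of rods.

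**Figure D4:**
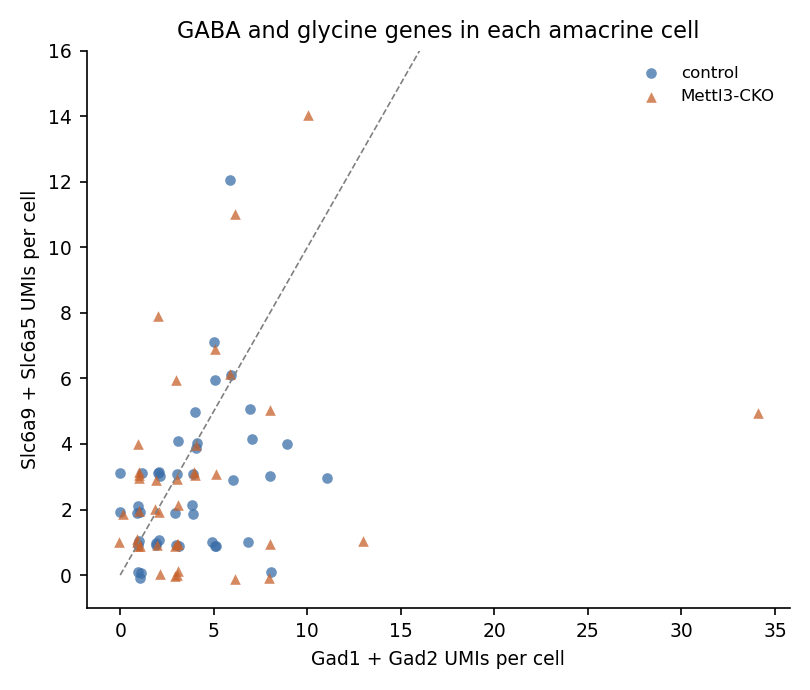
UMIs of Gad1 and Gad2 (horizontal axis) and of Slc6a9 and Slc6a5 (vertical axis) in each amacrine cell of the control (circles) and Mettl3-CKO (triangles) libraries, with a small random offset so that equal counts can be seen; the dashed line marks equal counts. Most cells held UMIs of both kinds, which the rule favours because Gad2 and Slc6a9 are among its markers, and 1 Mettl3-CKO cell held 34 Gad2 UMIs.

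Genes were ranked between the sides by the smaller of the 2 libraries' log2 ratios, which fixes a shared direction. Beyond Gad2, the GABA side was led by Neurog2, a proneural factor (log2 GABA over glycine of 1.73 in control and 1.41 in Mettl3-CKO), and Mab21l2 (1.36 and 1.60). Gng2 (1.19 and 1.14), Runx1t1 (1.17 and 1.07), Rbmx (1.22 and 1.38), Sulf2 (1.11 and 1.43), Lix1 (1.03 and 1.40), Gria2 (0.997 and 1.39) and Fam212b (0.99 and 1.04) followed. Among rod-poor members Runx1t1 was at 1.22 (0.62 to 1.85) and 0.75 (0.11 to 1.42) and Sulf2 at 1.60 (0.46 to 2.93) and 1.95 (0.21 to 4.34), while the Mettl3-CKO values of Neurog2 (0.69, -0.29 to 1.77), Mab21l2 (0.82, -0.04 to 1.77), Rbmx (0.73, -0.40 to 2.00) and Gria2 (0.03, -1.003 to 1.13) had intervals that held 0. The intervals of Gng2 held 0 in both libraries (1.09, -0.05 to 2.37, and 1.39, -0.20 to 3.41), and that of Lix1 did in control (0.80, -0.07 to 1.75). Ptf1a was found in 12 of 20 GABA-side and 5 of 14 glycine-side control members, and in 8 of 18 and 3 of 12 of Mettl3-CKO.

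On the glycine side the leading genes besides Slc6a9 were Cst3, Tmem158, Ddb1, Gngt1, Gngt2, Higd2a, Lgmn, Nfic and Rsrp1. Gngt1 and Gngt2 are transducin gamma subunits of photoreceptors. Both Mettl3-CKO barcodes above 50000 UMIs lay on this side, and among rod-poor members Tmem158 went from -2.90 in control to 1.73 in Mettl3-CKO (4 to 22 and 12 to 2 UMIs). Gngt1 had 4 control and 3 Mettl3-CKO UMIs over both sides of the rod-poor members. Of the 549 glycine-side UMIs of Cst3 in control, 496 came from 1 cell, and its Mettl3-CKO value among rod-poor members was -0.03 (-0.82 to 0.79). The rod-poor Mettl3-CKO intervals of Ddb1, Higd2a, Lgmn, Nfic and Rsrp1 held 0 as well, as did the control intervals of Higd2a and Lgmn, whereas Gngt2 lay below 0 in both libraries. The part of rod transcripts in this list was not tested.

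The share of amacrine cells was compared between the genotypes to see whether Mettl3-CKO retinas held fewer of them. In control, 1.21% of cells were members (0.880 to 1.63), and in Mettl3-CKO 1.43% were (1.03 to 1.95), a ratio of 1.18 (0.770 to 1.81). Rod-poor members were 0.932% and 1.004%, a ratio of 1.08 (0.653 to 1.78). With every cell thinned to 2000 UMIs, 18 of 3093 and 11 of 2585 cells met the rule, 0.582% and 0.426%, and the ratio was 0.731 (0.346 to 1.55). All 3 intervals held 1, and all 3 held a ratio of 1.5 as well, so an increase of that size lies within counting error. Toward fewer amacrine cells the intervals reached 0.770, 0.653 and 0.346, so falls down to these ratios lie within counting error too.

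Mettl3 itself (chromosome 14, 52294841 to 52305128, minus strand) was at 32.6 CPM (18.3 to 53.8) in control members, from 15 UMIs, and at 33.3 CPM (20.1 to 52.1) in Mettl3-CKO members, from 19 UMIs, a ratio of 1.02 (0.492 to 2.16). The libraries read the 3′ end of transcripts and the deleted exons were not given in the sources used here, so this count does not check the deletion. In the other cells Mettl3 was at 39.6 and 32.6 CPM. Of the other writer genes, Zc3h13 (115 and 154 CPM) and Wtap (104 and 121 CPM) had the most UMIs, and 2 of 8 reached 100 UMIs, with log2 ratios of 0.42 (-0.09 to 0.94) and 0.21 (-0.34 to 0.78). Of 11 readers and erasers 4 were tested and 0 were called, where 3.33% of all genes tested were called higher and 0.615% lower. Ythdc1, the nuclear m6A reader, was at 159 and 249 CPM, a log2 ratio of 0.65 (0.23 to 1.08).

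Over all members, 65 of 1951 genes (3.33%) were at least 2-fold higher in Mettl3-CKO and 12 (0.615%) at least 2-fold lower. Xist came first, with 0 control UMIs against 855 in Mettl3-CKO, at least 230.0-fold higher against a floor of 3 control counts over the library. The others of the 10 highest were detected in 66.7% to 98.3% of control rods. They were Samd7 (34.8 and 197 CPM), Prom1 (41.3 and 182 CPM), Pde6b, a rod phosphodiesterase subunit (50.01 and 186 CPM), Slc1a2, Nxnl2, Fyco1, Tulp1, Otx2 and Prcd. Of the 65 genes, 60 were at least 2-fold higher in control rods than in control members, 92.3% against 9.79% of all genes tested. Both ratios divide by the level in control members, so a low count there raises both. The size of this effect was not tested. In Mettl3-CKO, 2 cells gave 50% of the Samd7 and 73.6% of the Pde6b UMIs, and the 2 deepest barcodes gave 52.9% of the Otx2 UMIs. Without these 2 barcodes, 10 genes were higher and 6 lower.

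Rod-poor members gave a shorter list. Of 1107 genes tested, 9 (0.813%) were at least 2-fold higher in Mettl3-CKO and 5 (0.452%) at least 2-fold lower. They are named here after their values were seen. Besides Xist, the higher genes were Otx2, a homeobox factor of photoreceptors and bipolar cells (114 and 443 CPM, log2 ratio 1.95, 1.42 to 2.52), Map1b (87.3 and 274 CPM, 1.65), Apoe (102 and 305 CPM, 1.57), Gngt2 (165 and 457 CPM, 1.46), Robo3 (120 and 284 CPM, 1.24, 0.68 to 1.82), Fbxw7 (105 and 240 CPM, 1.19), Ccnd1 (129 and 284 CPM, 1.14) and Kcnq1ot1 (211 and 460 CPM, 1.13). Otx2, Map1b, Apoe and Gngt2 were again more abundant in rods. Robo3, which marked members without Ptf1a, was 8.49-fold and 12.5-fold over other cells. It was found in 27.9% of control and 45.0% of Mettl3-CKO members.

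The lower genes of the rod-poor members were Ptn, Igfbp2, Plk2, Crtac1 and Cst3. Ptn, the secreted growth factor pleiotrophin (chromosome 6, 36714929 to 36810220, minus strand), had 526 CPM in control and 133 CPM in Mettl3-CKO over all members, a log2 ratio of -1.98 (-2.37 to -1.60), and -1.47 (-1.89 to -1.07) in the rod-poor members. It was found in 69.8% and 50% of members. In the other cells its log2 ratio was -0.55 (-0.60 to -0.51) and in rods -0.09 (-0.47 to 0.27). Plk2, a kinase induced by activity, was at 367 and 146 CPM, log2 ratios of -1.34 (-1.73 to -0.95) and -1.13 (-1.61 to -0.66) in the rod-poor members, against 0.10 (-0.17 to 0.36) in the other cells. Igfbp2, a binding protein of insulin-like growth factors, was at 420 and 179 CPM, log2 ratios of -1.23 and -1.31, against -0.31 in the other cells. Crtac1 was called only in the rod-poor members (268 and 112 CPM, -1.26, -1.88 to -0.67), and was at -0.85 over all members.

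Cst3 rested on 1 cell. A single control member held 496 of its 685 control UMIs, 72.4%, and without the top cell of each library the log2 ratio went from -1.08 to 0.40. No such cell decided Ptn, Plk2 or Igfbp2, whose ratios without the top cell of each library were -2.12, -1.34 and -1.12. Ptn depended on which cells were taken, at -1.04 without members rich in markers of other cell types, -4.11 on the glycine side and -1.20 on the GABA side. Against the 9 Mettl3-CKO members without Xist, Plk2 was at -0.83 and Igfbp2 at -0.49, short of 2-fold. Further lower genes over all members included Fxyd6 (-1.46), Chodl (-1.15), Kcnmb4 (-1.13), Gria2 (-1.09), Smim18 (-1.07), Ndn (-1.03) and Calb2 (-1.01). In rod-poor members these included -0.94 (-1.29 to -0.59) for Fxyd6, -0.29 (-0.62 to 0.04) for Chodl and -0.53 (-1.14 to 0.06) for Gria2. Fxyd6 and Chodl were higher in the members with Ptf1a. In those members Fxyd6 was at 934 CPM in control and 358 CPM in Mettl3-CKO, and Chodl at 1108 and 560 CPM. In the members without Ptf1a, Fxyd6 was at 263 and 102 CPM and Chodl at 130 and 51.1 CPM. The part of the Ptf1a share in these ratios was not tested.

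**Figure D5:**
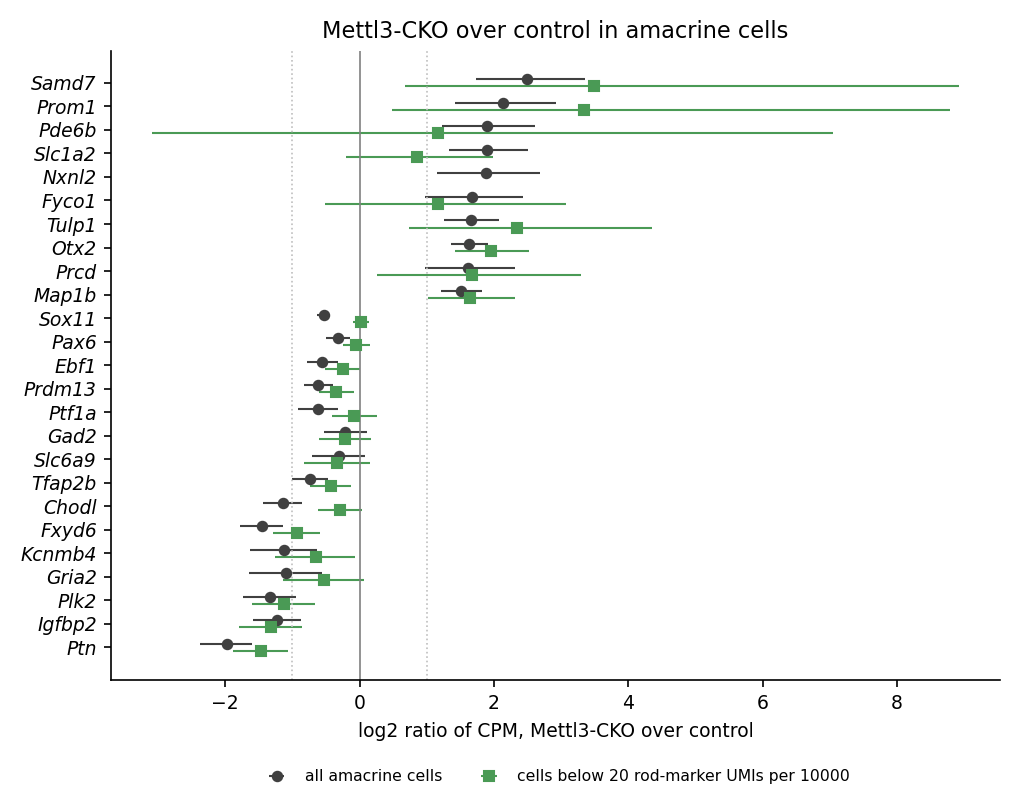
Log2 ratio of pooled CPM, Mettl3-CKO over control, over all amacrine cells (circles, 43 and 40 cells) and over rod-poor cells below 20 rod-marker UMIs per 10000 (squares, 33 and 28 cells); bars are exact 95% intervals for counting error, dotted lines mark 2-fold, and Nxnl2 is drawn for all cells only because it had 0 control UMIs and 4 Mettl3-CKO UMIs in rod-poor cells. Ptn, Igfbp2 and Plk2 lay below -1 in both sets, while Sox11, Pax6 and Ptf1a lay below 0 over all cells and near 0 in rod-poor cells.

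Of the amacrine fate factors 0 were called lower in Mettl3-CKO. Over all 1951 genes tested, 0.615% were called lower and 3.33% higher. At these shares a count of 0 says little of a list as short as this one or of the lists below. Of 15 fate factors tested, 12 had log2 ratios below 0 and 3 above 0, with a median of -0.43 against -0.03 over all genes tested. Of them 1 was called higher, Neurod1 (670 and 1537 CPM), which rods express. In rod-poor members the median was -0.08 and 0 were called. Sox11 went from -0.54 (-0.64 to -0.44) to 0.02 (-0.10 to 0.13), Pax6 from -0.32 to -0.05 (-0.25 to 0.15) and Ptf1a from -0.62 to -0.08 (-0.42 to 0.26). Intervals below 0 in the rod-poor members included those of Nfix (-0.67, -0.95 to -0.41), Neurod4 (-0.48, -0.72 to -0.24) and Prdm13 (-0.34, -0.61 to -0.08). Zfhx3, a large homeobox factor of the list with too few UMIs for a call, was at 65.2 and 12.3 CPM, a log2 ratio of -2.41 (-3.84 to -1.19), from 30 and 7 UMIs. Of the rule's own markers, Tfap2b had 609 CPM in control and 365 CPM in Mettl3-CKO. Cells lay between 0 and 1815 CPM (median 482) and between 0 and 2242 CPM (median 246). Gad2 had 344 and 297 CPM, with medians of 339 and 275 CPM and 20.1% of the Mettl3-CKO UMIs in 1 cell. The 7 rule markers summed to 1337 and 1027 CPM over all members and to 1477 and 1252 CPM in rod-poor members. Members with neither Tfap2a nor Tfap2b numbered 0 of 43 in control and 5 of 40 in Mettl3-CKO.

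Of the neurite and microtubule genes, 8 of 10 tested had log2 ratios below 0, with a median of -0.18 over all members and of 0.00 in rod-poor members. Map1b, a microtubule-associated protein, was the gene called (1.51). Synaptic vesicle genes had a median of 0.35 over 8 tested genes. Called higher were 3, Cplx2 (1.22), Snap25 (1.19) and Syp (1.16), against 3.33% of all genes tested. All 3 were found in at least 88.1% of rods, and in rod-poor members Cplx2 was at 0.42, Snap25 at 0.27 and Syp, the vesicle protein synaptophysin, at 1.01. The summed level of the 11 genes of GABA and glycine handling had a log2 ratio of -0.17 (-0.35 to 0.01), that of the 17 receptor subunits -0.16 (-0.53 to 0.21), and that of the 14 glutamate receptor subunits -0.32 (-0.66 to 0.02), of which Gria2 was the only gene tested. The 18 adhesion and guidance genes summed to 0.18 (0.01 to 0.35), with 2 tested and 0 called.

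The 8 m6A-tagged genes that the study picked on progenitor and Muller cells of these libraries had a median log2 ratio of 0.11 over 6 tested genes, 3 above and 3 below 0, with 0 called. Zfp292 was at 204 and 295 CPM (0.53, 0.16 to 0.91) and Sulf2 at 139 and 77.2 CPM (-0.85, -1.44 to -0.27). In rod-poor members the median was 0.31, and Sulf2 was at -0.28. Because the list was chosen on these samples, its direction is not independent evidence.

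None of the stress genes was called, where 3.33% of all genes tested were called higher and 0.615% lower. Cdkn1a, the p53 target that arrests the cell cycle, had 2 UMIs in control and 26 UMIs in 9 Mettl3-CKO members, a ratio of 10.5 (2.63 to 91.2), below the 100 UMIs needed for a call. In the other cells it was at 17.4 and 100 CPM. The 13 p53 targets summed to 0.23 (-0.04 to 0.49), with Bax (198 and 207 CPM) the only one tested. The 16 immediate early and heat shock genes had a median of -0.08 over 9 tested genes, with 0 called.

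Markers of other cell types were also counted in the members. The 6 progenitor and division markers summed to 80.4 CPM in control and 204 CPM in Mettl3-CKO (log2 1.34, 0.79 to 1.91), from 37 and 116 UMIs, and to 90.3 and 247 CPM in rod-poor members. They were also higher in Mettl3-CKO outside the members, at 595 and 815 CPM in the other cells and 106 and 152 CPM in rods. Mki67, a protein of dividing cells, had 0 UMIs in control and 17 UMIs in 6 Mettl3-CKO members. The 6 Muller glia markers summed to 557 and 749 CPM (0.43, 0.20 to 0.66), and 1 control and 3 Mettl3-CKO members held at least 30 of their UMIs per 10000. The 8 bipolar cell markers summed to 333 and 1021 CPM, nearly all of it Otx2, with Trpm1 and Grm6 at 0. The part of these markers in the ratios above was not tested.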

How the data were processed

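Dissociated retinas were profiled with the 10x Chromium 3′ kit, and each group was 1 library. The deposited matrices held UMI counts per gene and barcode, which the authors made with Cell Ranger 3.1.0 on mm10; Seurat 3.1 is named in the submitters' processing notes, and no normalised values were used here. Only part of each matrix was held, and other barcodes were not analysed here. Mitochondrial genes were left out of the totals. Counts were summed over the amacrine cells of a library and divided by the total (CPM).

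Intervals of 95% were exact Poisson for levels, exact Clopper-Pearson for shares, exact conditional binomial for ratios of levels and Katz for ratios of shares. They cover counting error only. With 1 library a group no test was run, no p-value is given, and depth limits precision through the count behind each value. Genes named were those of 29 fixed lists, the 10 highest and 10 lowest between genotypes, the 12 highest over other cells and the 10 most different each way between transmitter sides, with at least 100 UMIs, and for the genotypes a UMI in at least 10% of the cells of a library. Predicted, mitochondrial and ribosomal protein genes were not named. Values of a few genes that met these criteria or belong to the lists are not reported here. Genes of the Ptf1a division, Ndn, Calb2 and those called in rod-poor members were named after their values were seen. The cell rule and the gene lists were chosen with earlier results of these data known. Shares at fixed depth used cells thinned to 2000 UMIs.

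Scrublet (scanpy 1.11.5) was run on each library, and calculations used Python 3.11.15, numpy 2.4.6, scipy 1.17.1 and pandas 2.3.3. The intervals of level ratios and the calling of genes past 2-fold were tested on simulated counts. The intervals of shares and of their ratios were not. Positions are from GENCODE M21 (GRCm38), in which 30843 of 30905 gene IDs were found. Of 48 genes named by size, 24 overlap another gene, and the strand setting of the counting was not given in the sources used here, so that shared reads cannot be told apart.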

Additional observations from a re-analysis of the deposited data

Results flagged for a closer look

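Xist, which no comparison of the genotypes was about, was at 1500.3 CPM in the Mettl3-CKO amacrine cells, from 855 UMIs in 31 of 40 cells, and at 0 UMIs in the 43 control cells. It was looked at because it lies above the level in the control library. Of the Mettl3-CKO members, 6 held a UMI of a Y-linked gene and no Xist, 7 held both and 3 held neither. Among control members 36 held a Y-linked UMI. In the other cells Xist was found in 59.0% of Mettl3-CKO and 0.858% of control cells. The 2 retinas of a library were pooled, and sex and genotype cannot be told apart between the libraries.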

How the results depend on the processing

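With 1 library a group, no alternative bears on the spread between animals, and levels rest on few deep cells. No paired analysis was possible because each group held 1 library and the results come from no test. The rod-poor members, the removal of members above 50000 UMIs and the removal of the 6% of cells with the highest Scrublet scores were added after the data were seen. Removing predicted doublets removed no member. Of 144 alternative values for the shares, counts and list medians, 92 stayed within their limits. Of 260 for single genes, 178 did, and 6 changed sign. Both tallies include settings that left all or nearly all members in place, so neither measures how robust the values are. The removal of predicted doublets is among these settings. So is a limit of 2000 UMIs, which kept 43 of 43 control and 39 of 40 Mettl3-CKO members. Where a value moved, the cause was not tested.

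The Mettl3-CKO over control ratio of the share was 0.731 in cells thinned to 2000 UMIs. Thinned, the glycine side had no ratio, with 0 of 18 control and 2 of 11 Mettl3-CKO cells. Genes higher and lower in Mettl3-CKO (65 and 12) were 487 and 174 with at least 20 UMIs a gene, 19 and 5 with at least 300, and 4 and 26 in Mettl3-CKO cells without Xist. They were 5 and 4 on the GABA side, 9 and 5 in rod-poor members, and 10 and 6 without members above 50000 UMIs. On the glycine side 19 were lower, and 20 were higher without members rich in other markers and 33 without the 6% of highest scores.

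List medians are log2 ratios, Mettl3-CKO over control. In Mettl3-CKO cells without Xist they were 0.0913 for amacrine markers outside the rule, 0.52 for rod markers, -0.051 for fate factors, 0.20 for synaptic genes, 0.11 for neurite genes, 0.32 for m6A-tagged genes and -1.05 for immediate early genes. Neurite genes were at -0.29 in the cells with Xist. On the GABA side, rod markers were reversed at -0.67, fate factors were at -0.28 and neurite genes at 0.0167. On the glycine side, amacrine markers were at 0.0427, rod markers at 2.17, fate factors at -0.67, synaptic genes at 0.54, neurite genes at -0.34 and m6A-tagged genes at -0.0877. In rod-poor members, amacrine markers were at -0.19, rod markers at 0.34, fate factors at -0.0796, synaptic genes at 0.22, neurite genes at 0.0022, m6A-tagged genes at 0.31 and immediate early genes at 0.19. Without members above 50000 UMIs, rod markers were at 0.43, fate factors at -0.27 and neurite genes at -0.0226. Without members rich in other markers, rod markers were at 1.72, fate factors at -0.22 and immediate early genes at 0.16. With at least 4 markers, rod markers were at 1.26 and immediate early genes at 0.15. Without the 6% of highest scores, amacrine markers were at 0.15 and rod markers at 1.60. With the mean of per-cell CPM, rod markers were at 0.998 and neurite genes at -0.0437.

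Single genes that reversed were Fyco1 (-0.41), Otx2 (-1.15) and Gria2 (0.0577) in the 9 Mettl3-CKO cells without Xist, Pde6b (-0.68) on the GABA side, and Cst3 with at least 4 markers (0.78) and without members rich in other markers (0.71).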
